A study of Mus musculus with 12 samples.

Results

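G2 and mitotic keratinocytes are epidermal cells that have copied their DNA and are preparing for division or passing through it. They were picked here by their transcripts from the paw epidermis of 12 mice, where molecules were counted by their random tags (unique molecular identifiers, UMIs), 1 UMI for 1 captured transcript. A barcode, the label shared by all transcripts of 1 droplet, was taken as a keratinocyte when it had 500 to 6000 genes, at most 5% mitochondrial UMIs, at least 0.5% of its UMIs from Krt1, Krt10, Krt5 and Krt14 together, and no UMI of Cd74 (Langerhans cells and other antigen presenting cells) or Cd3e (T cells). For each keratinocyte, G was the sum of the UMIs of Ube2c, Cenpf, Ccnb1 and Cdc20, and S the sum of the UMIs of Hist1h1b, Hist1h1a, Pclaf and Esco2. A G2 or mitotic keratinocyte had a G of at least 5 and at least 2 times its S. Of 140392 barcodes, 114306 passed as keratinocytes, and 7466 of these, or 6.53%, were G2 and mitotic keratinocytes. They were set beside 7102 S phase keratinocytes (S of at least 5 and at least 2 times G) and 70838 resting keratinocytes (S and G both 0). Since the UMIs of these genes chose the cells, levels in the chosen cells against other cells are given as a description, with no test.

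The mice were wild-type C57BL/6J, and 1 library was made per mouse, with 3 libraries for each combination of sex and diet. Feeding with RD (regular diet, 11% fat) or HFD (high-fat diet, 42% fat) began at 6 to 8 weeks of age and lasted 10 weeks, which puts the mice at 16 to 18 weeks. The glabrous skin of the hind paw was split with Dispase and its epidermis dissociated with TrypLE, with no sort. The libraries held 134449247 to 194673581 UMIs in all, and the G2 and mitotic keratinocytes 5980765 to 14027978 UMIs per mouse, with a median of 9673 to 17702 UMIs per cell. The headers name Cell Ranger 6.1.0 in every male file and 7.2.0 in every female file, so a difference between the sexes and one between the software versions cannot be told apart. Levels are given as CPM, the UMIs of a gene scaled to a common total of the cells summed, mostly a single cell class within a mouse. Xist (inactive X chromosome) lay at 862 to 1154 CPM in the female G2 and mitotic keratinocytes and at 0 to 0.174 CPM in the male ones. Ddx3y (Y chromosome) lay at 32.8 to 51.7 CPM in males and at most 0.104 CPM in females. Both match the labels.

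In the epidermis, division takes place mainly in the basal layer, which adheres to the basement membrane and carries Krt5 and Krt14, and cells that leave it switch to Krt1 and Krt10. Entry into mitosis is driven by cyclin B bound to Cdk1, and exit from it by the anaphase-promoting complex (APC/C), a ubiquitin ligase that marks securin and cyclin B for destruction. Many transcripts of this machinery are made only late in the cycle, from promoters that carry a cell cycle genes homology region (CHR), bound by MuvB complexes with B-Myb and Foxm1, and CCAAT boxes, bound by NF-Y.

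All genes given as markers of these cells were high in them. Ube2c, the enzyme that starts ubiquitin chains for the APC/C, lay at 471, 529 and 620 CPM in male RD, 792, 671 and 720 CPM in male HFD, 928, 827 and 889 CPM in female RD and 963, 1057 and 991 CPM in female HFD mice. Cdc20, the mitotic activator of the APC/C, ranged from 209 to 553 CPM, Cenpf, a kinetochore protein, from 371 to 599.8 CPM and Ccnb1, cyclin B1, from 161 to 286 CPM. In resting keratinocytes these 4 genes were at 0 by the rule. Cenpa, the histone H3 variant of the centromere, took no part in the rule. It lay at 412 ± 66.9 CPM (SD, n = 12) in G2 and mitotic keratinocytes against a mean of 52.6 CPM in S phase and 2.12 CPM in resting keratinocytes. At least 1 UMI of Cenpa was present in 98.0% of G2 and mitotic keratinocytes (median 14568.5 UMIs per cell), 38.4% of S phase keratinocytes (12671 UMIs) and 2.00% of resting keratinocytes (9969 UMIs). Resting keratinocytes had no UMI of the genes of G and S by the rule, so their share is a low estimate of the level that free RNA gives. After each cell had been thinned to 5000 UMIs, the shares were 84.6%, 21.0% and 1.02%. Cells just outside the rule, with a G of 4, numbered 347 and held 228 CPM of Cenpa in their summed UMIs, and those just inside it, with a G of 5, numbered 268 and held 307 CPM.

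The promoters of these genes are shown for short motifs near their starts, CCAAT in all of them and TTTGAA in all but Ccnb1. That the 4 genes of G were high together was set by the rule. Each stretch runs from 110 bases before the annotated start to 22 bases of the transcript, 5′ to 3′ on the strand of the gene, from RefSeq windows of GRCm38.p6. Capitals mark TTTGAA and TTCGAA (the only forms of the CHR that were searched) and CCAAT. Each was searched on either strand, so that TTCAAA and ATTGG are the same motifs read on the other strand.
Ube2c (chr2:164769819-164769950, + strand): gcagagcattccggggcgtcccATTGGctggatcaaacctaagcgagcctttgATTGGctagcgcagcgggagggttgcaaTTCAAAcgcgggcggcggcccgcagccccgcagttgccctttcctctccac
Cenpf (chr1:189688065-189688196, - strand): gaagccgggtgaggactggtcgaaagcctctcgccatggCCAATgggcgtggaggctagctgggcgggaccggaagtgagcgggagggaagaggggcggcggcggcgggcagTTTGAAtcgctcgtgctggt
Ccnb1 (chr13:100786465-100786596, - strand): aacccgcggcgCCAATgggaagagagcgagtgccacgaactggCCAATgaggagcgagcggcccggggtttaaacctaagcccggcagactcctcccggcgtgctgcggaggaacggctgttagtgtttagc
Cdc20 (chr4:118437322-118437453, - strand): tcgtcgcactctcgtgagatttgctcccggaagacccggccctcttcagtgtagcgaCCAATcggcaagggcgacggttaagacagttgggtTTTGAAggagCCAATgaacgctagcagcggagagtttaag
Cenpa (chr5:30666776-30666907, + strand): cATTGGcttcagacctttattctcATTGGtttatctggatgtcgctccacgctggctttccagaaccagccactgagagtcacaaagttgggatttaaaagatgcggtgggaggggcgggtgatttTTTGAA
Ccnb2 (chr9:70421533-70421664, - strand): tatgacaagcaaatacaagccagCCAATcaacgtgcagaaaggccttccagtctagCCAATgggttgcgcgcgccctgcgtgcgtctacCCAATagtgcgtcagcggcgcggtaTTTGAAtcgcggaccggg
Hmmr (chr11:40733416-40733547, - strand): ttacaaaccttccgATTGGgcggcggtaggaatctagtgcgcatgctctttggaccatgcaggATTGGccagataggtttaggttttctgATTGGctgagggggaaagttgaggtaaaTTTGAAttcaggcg
The first base of the TTTGAA match lay 29 bases before the RefSeq start in Ube2c and 18 before it in Cdc20 (-29 and -18). It lay past the start in Cenpf (2), Ccnb2 (4), Hmmr (8) and Cenpa (16). These distances hold for the RefSeq starts only. In the GENCODE annotation, for example, Ube2c begins at position 164769898 and Cenpa at 30666777, both upstream of their RefSeq starts. Ccnb2 had another TTTGAA match farther out in its window, at -167, which is not in the stretch shown. Ccnb1 had 2 CCAAT matches and no TTTGAA match in its window, which says only that these letters are not there. Ccnb2 (cyclin B2) and Hmmr (a spindle protein) were added to the 5 markers after the values were seen.

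**Figure D1:**
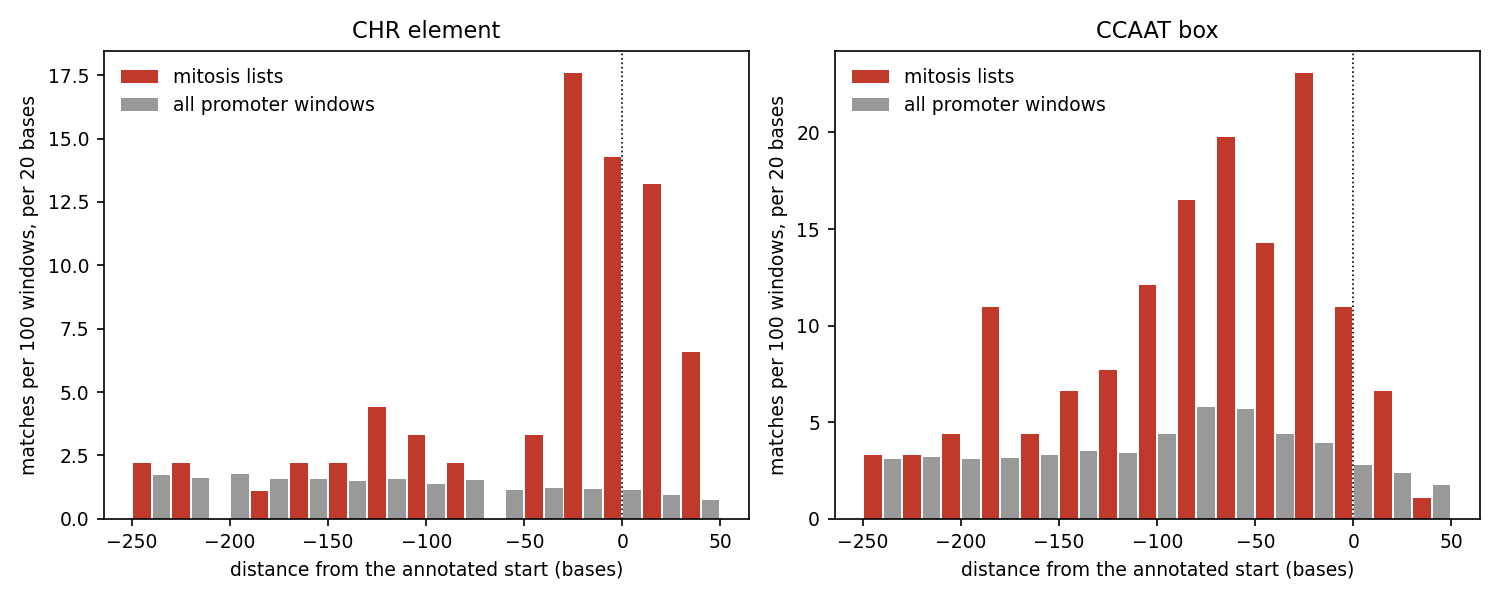
Matches to the cell cycle genes homology region (TTTGAA, left) and to the CCAAT box (right), on either strand, per 100 promoter windows in bins of 20 bases (y axis) against the distance of the first base of the match from the annotated start in bases (x axis). Red bars are the 91 windows of the mitosis lists and grey bars all 32851 windows; the red bars of the homology region are highest from about 30 bases before the start onward.

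The same motifs were counted over 9 lists of mitotic genes (97 genes in all, of which 82 had 1 or more promoter windows, 91 in total) and over all 32851 windows of 27025 genes. Windows run from 250 bases before to 50 after the start. TTTGAA was present in 59.3% of the windows of the mitosis lists and in 17.9% of all windows. A match beginning within 50 bases before the start or after it was present in 51.6% and 4.94% of them, TTCGAA in 8.79% and 1.56%, and 2 or more CCAAT boxes in 42.9% and 11.7%. DNA replication genes shared the CCAAT boxes (2 or more in 9 of 18 windows) but not TTTGAA (11.1%), and in the windows of G1 cyclins and cell cycle inhibitors TTTGAA was present in 15.4%. A match is a description of the letters in the window, not of a bound site.

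Among the 20 genes with the largest ratio to resting keratinocytes at a mean of at least 50 CPM, 6 were genes of the rule itself. Apart from these 6, the highest were Cenpa (median log2 ratio of CPM, with 1 CPM added, 7.19; range over mice 5.89 to 7.75), Birc5 (6.65), the survivin subunit of the chromosomal passenger complex, Hmmr (6.63), Cdk1 (6.45), Nusap1 (6.40), which bundles spindle microtubules, Ccnb2 (6.22), Ccna2 (6.13), Cdca3 (6.12), Aspm (6.05), Aurkb (6.04), the kinase of the passenger complex, Cenpe (6.00), a kinetochore motor, Top2a (5.92), which untangles sister DNA, Pbk (5.85) and Kif11 (5.81), the kinesin that separates the spindle poles. All 97 genes of the mitosis lists were higher than in resting keratinocytes in all 12 mice, where 48.0% of all 9148 genes at a mean of at least 5 CPM were. The 97 include the 4 genes of G, whose place was fixed by the rule. The lowest ratios to resting keratinocytes at 50 CPM belonged to Defb6 (-3.82), Krt79 (-3.16), Cst6 (-2.86), Teddm3 (-2.74), Elovl4 (-2.73), which makes very long chain fatty acids of the skin barrier, and Serpinb12 (-2.71), which were named after their values were seen. Of 13 suprabasal genes 12 were lower than in resting keratinocytes in all 12 mice (background 17.2%), and of 10 basal genes all were higher. Between basal cells of both classes, 0 of 10 basal genes were higher and 5 lower in all 12 mice (median -0.25), and 1 of 12 suprabasal genes was higher and 3 lower, where 26.0% of 9357 genes were higher and 13.1% lower. Between suprabasal cells of both classes, 10 of 10 basal genes were higher in all 12 mice (median 1.79). Of the suprabasal genes 12 of 13 were lower in all 12 mice (median -1.17), where 38.0% of 8850 genes were higher and 13.3% lower. All these counts include the keratins that admitted the cells and divided the sides, Krt5 and Krt14 as basal and Krt1 and Krt10 as suprabasal genes. Cells with mixed keratins, defined below, were 47.6% of suprabasal G2 and mitotic cells and 7.14% of suprabasal resting keratinocytes. The part of droplets with more than 1 cell in these counts was not tested.

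**Figure D2:**
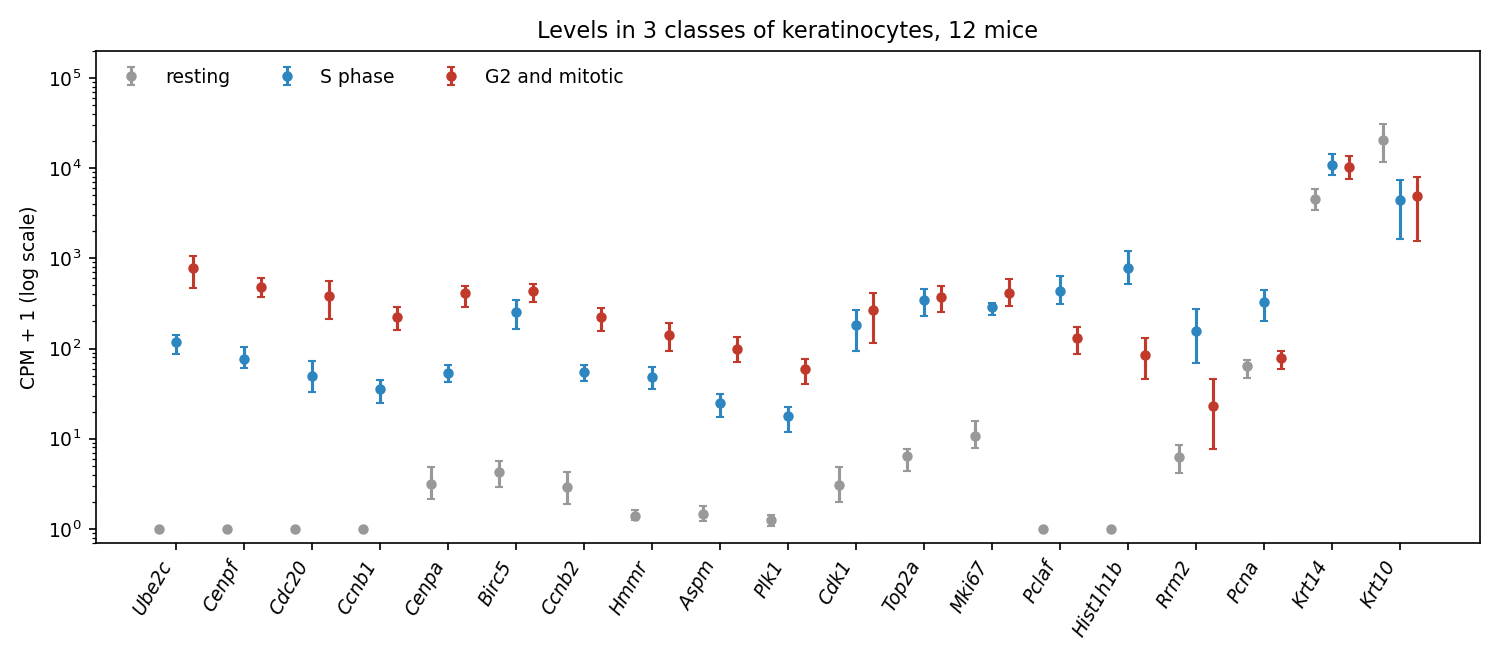
Mean CPM plus 1 on a log scale (y axis) of 19 genes in resting (grey), S phase (blue) and G2 and mitotic keratinocytes (red), with bars from the lowest to the highest of the 12 mice. The 4 genes of G and 2 of the genes of S sit at 0 CPM in resting keratinocytes because the rule set them so; Cenpa, Ccnb2, Hmmr, Aspm and Plk1 in G2 and mitotic keratinocytes lie above the other classes in every mouse, while Top2a and Mki67 overlap with S phase keratinocytes.

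Against S phase keratinocytes, the ratios varied between and within the lists. Of all 9322 genes compared, 17.0% were higher and 12.3% lower in G2 and mitotic keratinocytes in all 12 mice, and the median of all genes was 0.04 on the log2 scale. Of the 97 genes of the mitosis lists, 67 were higher and 5 lower in all 12 mice, with a median log2 ratio of 0.62. All of these ratios compare cells that the rule separated, and nothing is read from the counts beyond the description.

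Genes of the spindle and its poles were higher in all 12 mice throughout, 12 of 12 genes with a median log2 ratio of 1.15. Nek2, a centrosome kinase, had a ratio of 2.04, Plk1, the polo kinase of mitotic entry, 1.72, Hmmr 1.45, Nusap1 0.84 and Tpx2, the activator of Aurora A, 0.81. Genes of cytokinesis were likewise higher in 7 of 7 cases (median 0.82), led by Aspm (1.96), with Racgap1 (0.82), Anln (0.67) and Prc1 (0.66), which build the central spindle and the cleavage furrow. The passenger complex (6 of 6, median 0.67) had ratios of 1.00 for Cdca8, 0.78 for Birc5, 0.39 for Aurkb and 0.36 for Incenp. Of 12 mitotic kinesins 10 were higher in all mice (median 0.81), with 2.08 for Kif2c, which takes microtubules apart, 1.18 for Kif20b, 0.78 for Kif23 and 0.30 for Kif11.

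Cdk1 and its partners were less even. Of 12 genes 10 were higher and 1 lower in all 12 mice, with ratios of 2.63 for Ccnb1, which the rule used, 1.98 for Ccnb2, 1.04 for Cks2, a small subunit of the Cdk1 complex, 0.58 for Ccna2 (cyclin A2) and 0.52 for Cdk1. Pkmyt1, a kinase that holds Cdk1 back, was the lower gene (-0.69). In the APC/C list, 10 of 14 genes were higher and 2 lower in all mice. Cdc20 (3.00) and Ube2c (2.81), both used by the rule, stood far above Ube2s (0.56), which extends ubiquitin chains, and the core subunit Anapc5 (0.17, higher in 10 of 12 mice). Fbxo5, the inhibitor of the APC/C in S phase, was lower (-1.46), as was Anapc11 (-0.30). Pkmyt1, Fbxo5 and Anapc11 are named because they were the only ones lower, after their values were seen.

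In the centromere and kinetochore list a few genes stood far above the rest. Cenpa (3.02), Cenpf (2.70, used by the rule) and Cenpe (1.68) were far higher than in S phase keratinocytes, yet only 6 of the 16 genes were higher in all 12 mice, and Spc24, of the Ndc80 complex at the microtubule end of the kinetochore, had a ratio of 0.14 with 7 of 12 mice higher. In the spindle checkpoint list 4 of 8 genes were higher in all mice, with 1.84 for Knstrn, 0.96 for Bub1b, 0.84 for Bub3 and 0.41 for Mad2l1. The chromosome condensation list was centred near 0 (median 0.02). Smc4 (0.62, 454 CPM) and Mki67 (0.34, 415 CPM, higher in 11 of 12 mice), which coats mitotic chromosomes, were higher, Top2a (0.12, 9 of 12 mice) and Smc2 (-0.10, 5 of 12 mice) were close to their S phase level, and the condensin subunits Ncapg2 (-1.69) and Ncapd3 (-0.93), named after their values were seen, were lower in all mice.

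The genes with the largest ratios to S phase keratinocytes at 50 CPM were Cenpa, Cdc20, Ube2c, Cenpf and Ccnb1, followed by Cdkn3 (2.56), a phosphatase that acts on Cdk1, Gas2l3 (2.12), a linker of actin and microtubules, Kif2c, Nek2 and Ccnb2. The lowest at 50 CPM in S phase keratinocytes were Hist1h1b (-3.23) and Hist1h1a (-3.02), used by the rule, Chaf1b (-3.01), which loads histones behind the fork, Rrm2 (-2.76), the S phase subunit of ribonucleotide reductase, Hist1h2ae (-2.73), Hist1h2ap (-2.56), Mcm2 (-2.54), Hist2h2ac (-2.54), Hells (-2.53) and Mcm3 (-2.45). All 20 DNA replication genes were lower in all 12 mice (median -2.08), the best expressed of them being Rrm1 (-0.64), Pcna (-2.10), the sliding clamp of the replication fork, Tyms (-1.16) and Slbp (-1.94), which binds the ends of histone transcripts. Pclaf, the Pcna clamp factor in S, lay at 129.9 CPM in G2 and mitotic and at 433 CPM in S phase keratinocytes.

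**Figure D3:**
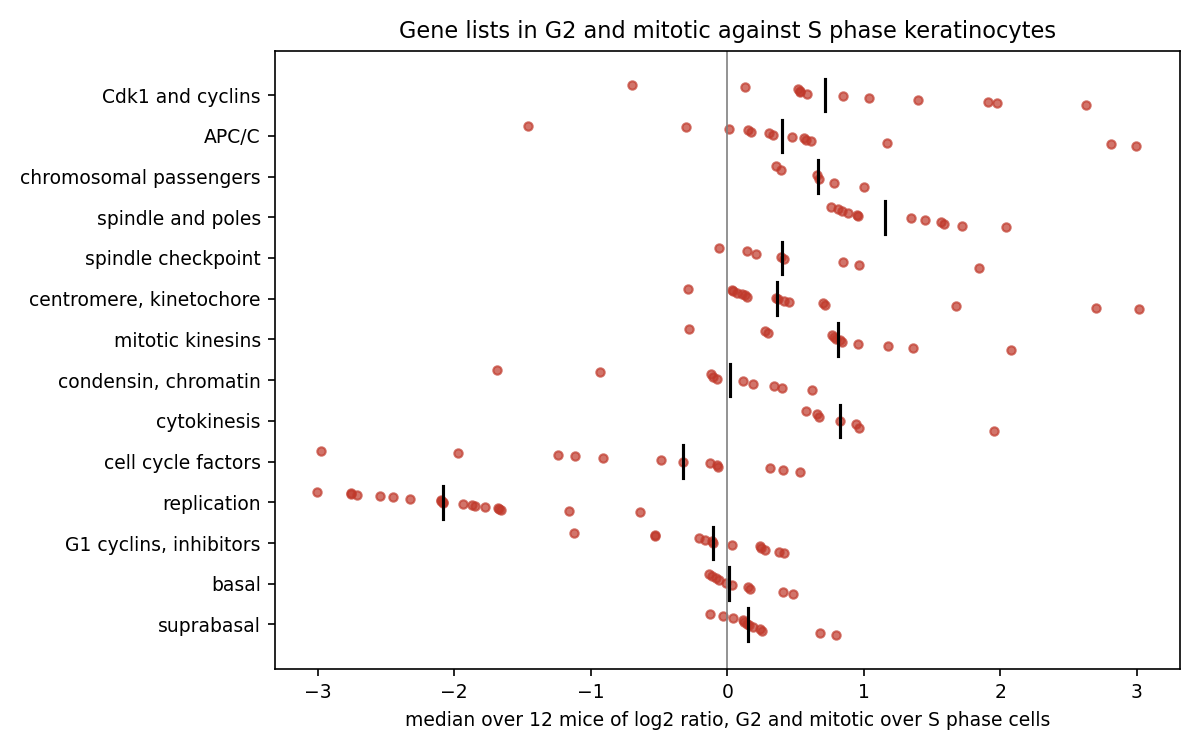
Median over 12 mice of the log2 ratio of CPM in G2 and mitotic over S phase keratinocytes (x axis) for each gene (points) of 14 lists (y axis), with a black bar at the median of each list. The spindle list has its median at 1.15 and the replication list at -2.08, and the kinetochore list reaches from -0.29 to 3.02.

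None of the listed factors known to act on these promoters lay above a mean of 59.3 CPM. Of 13 cell cycle factors and MuvB subunits, 3 were higher and 6 lower than in S phase keratinocytes in all 12 mice. The best expressed were Nfyb (59.3 CPM, log2 ratio -0.07) and Nfyc (43.8 CPM, 0.31), subunits of NF-Y, Tfdp1 (55.8 CPM, -0.91), the partner of E2F, and Lin54 (42.6 CPM, -0.13), the MuvB subunit that binds the CHR. Foxm1 (38.9 CPM, 0.53 against S phase and 4.59 against resting keratinocytes) and Mybl2 (B-Myb, 4.98 CPM, -1.97 against S phase), named after their values were seen, lay on opposite sides of the S phase level. Among G1 cyclins and cell cycle inhibitors, Btg2 (758 CPM, -0.11), Ccnd1 (cyclin D1, 303 CPM, -0.16), Cdkn1a (p21, 289 CPM, -0.11) and Btg1 (221 CPM, 0.24) were close to their S phase level. Against resting keratinocytes, 3 of 12 genes of this list were higher and 4 lower in all 12 mice (median 0.02). Of all genes, 48.0% were higher and 17.2% lower. Cdkn1a was among the lower (-0.97). Resting keratinocytes were more often suprabasal, and Cdkn1a was higher in suprabasal G2 and mitotic keratinocytes (both below). The part of the layers in this ratio was not tested.

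How the cells fall between the basal and the suprabasal side was not set by the rule, which used only the sum of the 4 keratins. A cell was called suprabasal when Krt1 and Krt10 together had more UMIs than Krt5 and Krt14. By this measure 23.6% ± 4.11 (SD, n = 12) of G2 and mitotic, 19.4% ± 2.95 of S phase and 60.9% ± 6.75 of resting keratinocytes were suprabasal. The share was higher in G2 and mitotic than in S phase keratinocytes in 11 of 12 mice, by 4.19 percentage points (two-sided exact permutation test of signs within mice, p = 0.00098), and lower than in resting keratinocytes in all 12, by 37.4 points (p = 0.00049, the smallest p this test can give). The exception was female HFD replicate 2, with 13.4% of G2 and mitotic and 14.4% of S phase keratinocytes. After thinning to 5000 UMIs the difference from S phase keratinocytes was 4.33 points.

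**Figure D4:**
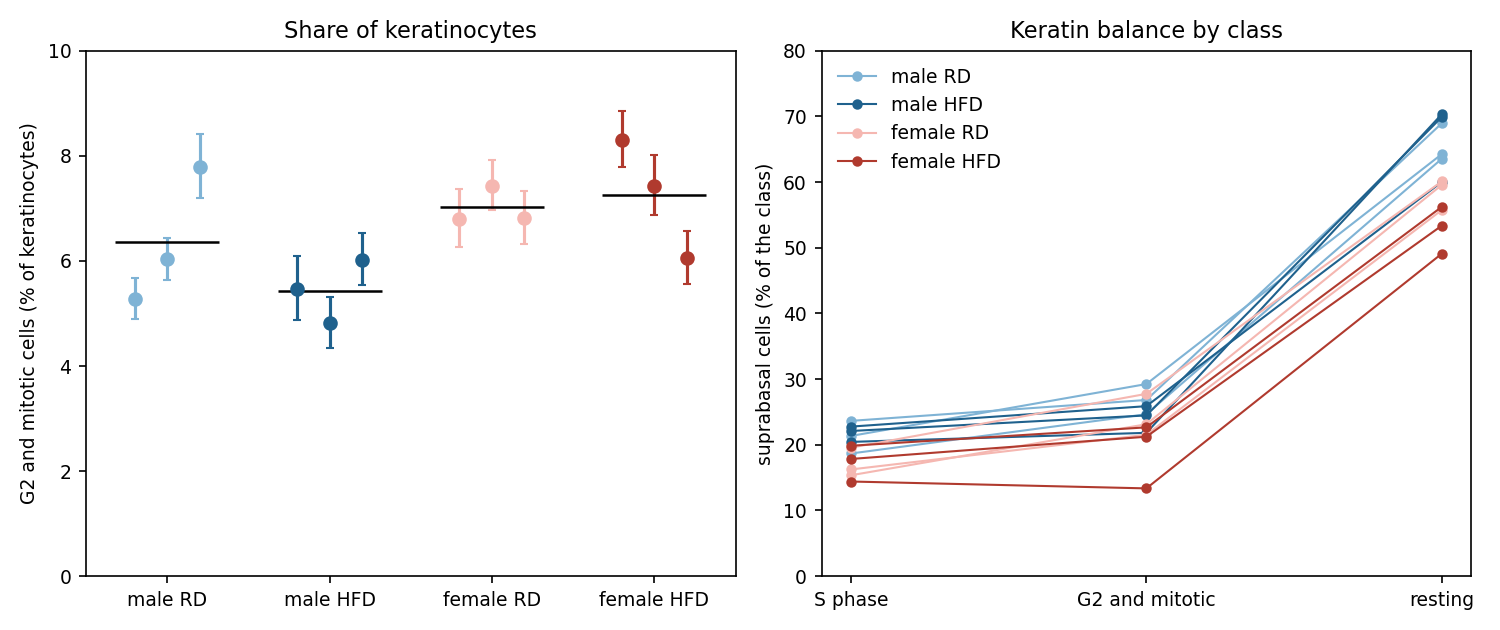
Left, G2 and mitotic cells as a percentage of keratinocytes (y axis) in each mouse by group, with exact 95% binomial intervals for counting error and a black line at the group mean. Right, the percentage of suprabasal cells (y axis) in S phase, G2 and mitotic, and resting keratinocytes, with 1 line per mouse; the lines rise from S phase to G2 and mitotic cells in 11 of 12 mice.

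The 1780 suprabasal and 5686 basal cells of the G2 and mitotic class differed beyond the keratins that divided them. Suprabasal cells held 12846 CPM of Krt10 and 4207 CPM of Krt14, and basal cells 1497 and 12393 CPM. In 47.6% of the suprabasal cells the share of Krt1 and Krt10 among the 4 keratins lay between 25% and 75%, against 7.14% of suprabasal resting keratinocytes, which held 27347 CPM of Krt10 and 791 CPM of Krt14. Their median was 17353.5 UMIs per cell, against 13844.5 in the basal cells. Suprabasal S phase keratinocytes were mixed in 48.5% of cases. No caller for doublets was run, droplets with 2 cells would also have mixed keratins and more UMIs, and their part in the result was not tested. Of the genes that did not divide them, Krt9, the keratin of palms and soles, was higher in suprabasal than in basal cells by a median of 2.97 on the log2 scale, Krtdap (1.23) and Lgals3 (0.75) were higher in all 12 mice, and Cdkn1a was higher by 0.81. Krt15 (-2.29), Col17a1 (-1.33), a collagen of the hemidesmosome, and Ccnd2 (-1.32) were lower. Krt9, Cdkn1a and Ccnd2 were named after their values were seen. The mitotic genes were lower in suprabasal cells by a median of 0.36 (-0.36), with 45 of 97 genes lower and 0 higher in all 12 mice, where 16.1% of all 9232 genes were lower and 8.71% higher. The 97 include the 4 genes of G, of which 3 were lower in all 12 mice. DNA replication genes were lower as well, 10 of 17 in all 12 mice, with a median of -0.48. The part of the difference in UMIs per cell was not tested. Cenpa fell from a mean of 441 CPM in basal to 347 CPM in suprabasal cells.

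The share of keratinocytes in G2 and mitosis was compared between diets and sexes, since the deposit sets HFD against RD in both sexes. It was 5.27%, 6.03% and 7.78% in male RD, 5.46%, 4.81% and 6.03% in male HFD, 6.80%, 7.44% and 6.82% in female RD and 8.30%, 7.43% and 6.05% in female HFD mice. The smallest value had an exact 95% binomial interval of 4.35% to 5.31%, which covers counting error only. Diet groups overlapped in both sexes. HFD was lower by 0.93 percentage points in males (-0.93, from 6.36% ± 1.29 to 5.43% ± 0.607, SD, n = 3 and 3, two-sided exact permutation p = 0.4) and higher by 0.24 points in females (7.02% ± 0.360 to 7.26% ± 1.14, exact permutation p = 0.8), where 3 mice against 3 cannot go below 0.1. The difference between these diet effects was -1.17 points (exact permutation of sex within diet, p = 0.39). Leaving out 1 mouse moved the male difference from -1.48 points (without male RD replicate 1) to -0.22 (without male RD replicate 3), and the difference between the diet effects from -1.78 (without female HFD replicate 3) to -0.46 (without male RD replicate 3).

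Male libraries had a lower share than female libraries, 5.90% ± 1.03 against 7.14% ± 0.767 (SD, n = 6 and 6), a difference of -1.24 points (two-sided exact permutation p = 0.0455) with overlapping values. Omitting 1 library moved p above the threshold, to between 0.0671 and 0.0974, for male RD replicates 1 and 2, male HFD replicates 1, 2 and 3, female RD replicate 2 and female HFD replicates 1 and 2. With a G of at least 3 the difference was -0.90 points (exact permutation p = 0.156), and after thinning to 5000 UMIs it was -1.71 points (p = 0.0108). Median UMIs of resting keratinocytes ranged from 6109.5 to 15343.5 in males and from 8271 to 11614.5 in females.

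The balance between the G2 and mitotic class and S phase was 0.826, 0.758 and 1.34 cells per S phase cell in male RD, 0.682, 0.667 and 0.784 in male HFD, 1.76, 1.35 and 1.58 in female RD and 1.47, 1.83 and 0.752 in female HFD mice. Male HFD mice had fewer than 1 such cell per S phase cell throughout, but 1 male RD value lay between theirs. On the log2 scale the HFD effect was -0.41 in males (exact permutation p = 0.2, and -0.19 after thinning) and -0.30 in females (p = 0.7). Without male RD replicate 3 the male effect was -0.16. In females 1 mouse set the direction, since without female HFD replicate 3 the effect was 0.08. The suprabasal share of the class was 26.9% ± 2.30 in male RD and 24.1% ± 2.06 in male HFD (SD, n = 3 each, exact permutation p = 0.2, a difference of -2.85 points that was -0.56 after thinning), and 24.1% ± 3.23 and 19.1% ± 5.01 in females (p = 0.2). Without female HFD replicate 2 the female difference of -5.06 points was -2.20, and without female RD replicate 2 it was -3.25. The male one was -1.68 without male RD replicate 2 and -1.73 without male HFD replicate 1.

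Expression by diet was tested on UMIs summed per mouse over the G2 and mitotic keratinocytes, with edgeR's quasi-likelihood test and Benjamini-Hochberg adjustment. In males none of 11353 genes passed an adjusted p of 0.05 (0%), while 972 had an unadjusted p under 0.05 and DESeq2 called 21. No gene of the mitosis lists passed, yet 92 of the 97 had a higher estimate on HFD, with a median of 0.30 on the log2 scale, where 49.5% of all genes tested had an estimate above 0. At an unadjusted p under 0.05 there were 45 of the 97, against 8.56% of all genes. These genes are measured in the same cells and are not independent of each other. The 4 genes of G, whose UMIs chose the cells, are all counted in both the 92 and the 45. When the cells were chosen after thinning to 5000 UMIs, the median was 0.18 with 86 of 97 positive. Median UMIs per cell were 9673 to 13069 in male RD and 13845 to 17352 in male HFD mice, and the part of depth in the result was not tested further.

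No single gene passed in males. Cdk1 had a log2 fold change of 0.51 (SE 0.13, edgeR adjusted p = 0.425), Ccnb2 0.45, Aspm 0.48, Nusap1 0.38, Prc1 0.37 and Spc24 0.42, each with an edgeR adjusted p of 0.396 to 0.446. Cenpa had 0.35 (SE 0.11, adjusted p = 0.489), from 302, 289 and 389 CPM in RD to 460.5, 389 and 423 CPM in HFD mice. The 4 genes of G, whose UMIs chose the cells, had estimates of 0.40 for Ube2c, 0.38 for Cdc20, 0.31 for Cenpf and 0.30 for Ccnb1, given with no test. DNA replication genes lay on the other side, with 4 of 19 positive and a median of -0.17, and none passed. Without male RD replicate 2 there were 7 of 19 with a median of -0.08, and without male RD replicate 3 the median was -0.27. Of the 13 suprabasal genes all 13 had estimates below 0, with -0.71 for Krtdap (SE 0.12, edgeR adjusted p = 0.266) and a median of -0.24. Krt1 and Krt10, which the rule used, are among them.

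**Figure D5:**
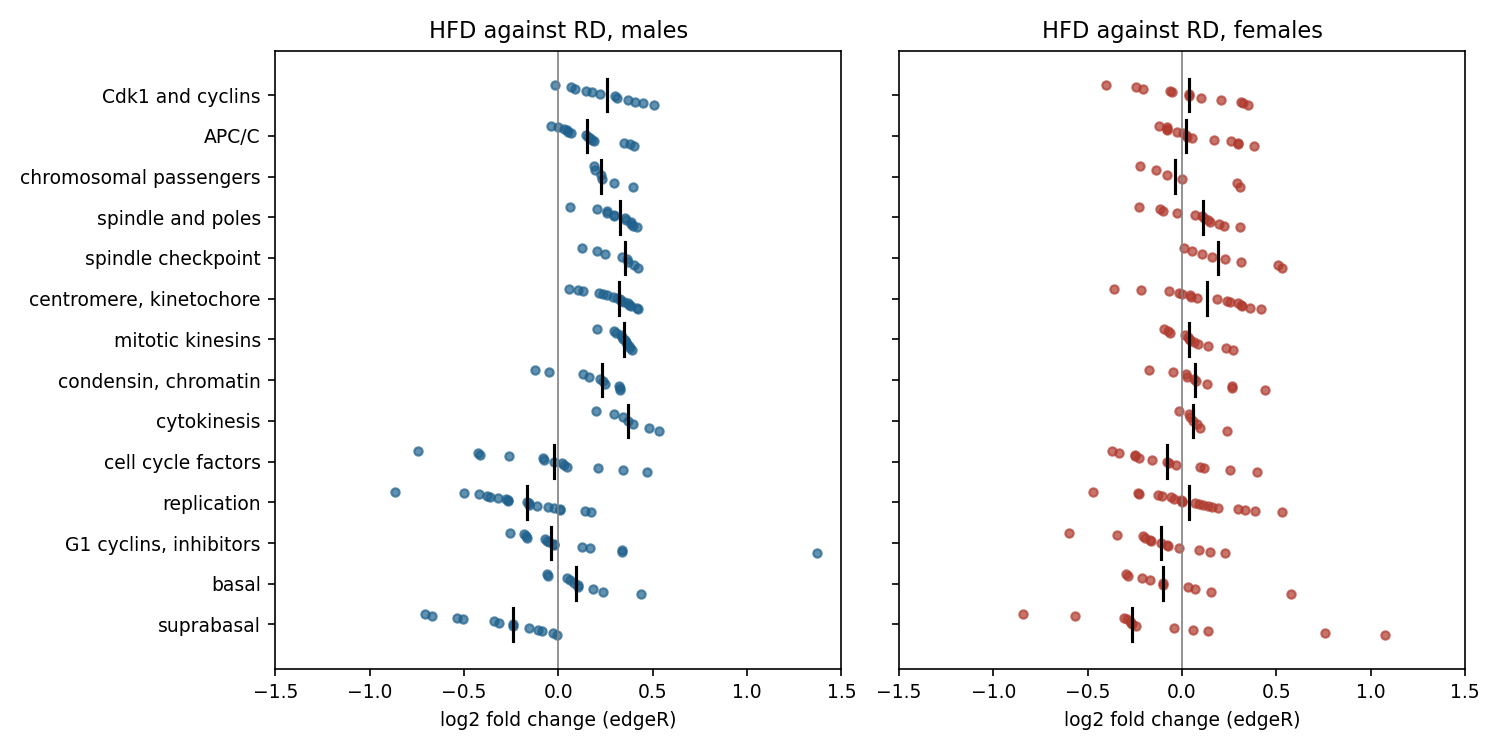
log2 fold change of HFD against RD from edgeR (x axis) in the G2 and mitotic keratinocytes of males (left, blue) and females (right, red) for each gene (points) of 14 lists (y axis), with a black bar at the median of each list. No point passed an adjusted p of 0.05; in males the mitotic lists have medians from 0.15 to 0.37 and the suprabasal list lies below 0, and in females the lists lie on both sides of 0.

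In females 3 of 12620 genes passed (0.0238%). Angptl2, a secreted angiopoietin-like protein, lay at 47.3, 47.8 and 44.9 CPM in RD and 25.4, 27.2 and 21.2 CPM in HFD mice (log2 fold change -0.94, SE 0.09, edgeR adjusted p = 0.0265). Zranb2, a splicing factor, lay at 50.2, 43.5 and 51.1 CPM in RD and 89.2, 78.5 and 82.6 CPM in HFD mice (0.78, SE 0.09, edgeR adjusted p = 0.0335). Coa3, an assembly factor of cytochrome oxidase, rose from 64.3, 63.3 and 62.0 CPM to 99.2, 96.6 and 96.5 CPM (0.61, SE 0.07, edgeR adjusted p = 0.0335). The S phase keratinocytes of the same females differed in the same direction. There Angptl2 lay at 38.1 to 41.8 CPM in RD and 16.2 to 22.6 CPM in HFD mice. Zranb2 lay at 38.1 to 47.5 and 75.4 to 92.3 CPM, and Coa3 at 45.3 to 46.1 and 72.5 to 79.7 CPM. In the male G2 and mitotic keratinocytes the diet groups overlapped for all 3 genes, with Angptl2 at 22.5 to 34.5 CPM in RD and 26.6 to 31.9 CPM in HFD mice. None of the 3 is in the mitosis lists.

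The number called in females changed with the mice included. It was 0 without female RD replicate 1, 2 or 3 or female HFD replicate 1, 4 without female HFD replicate 3 and 71 without female HFD replicate 2, and DESeq2 called 186. The fold changes of the 3 genes moved little, from -0.98 to -0.86 for Angptl2, 0.71 to 0.85 for Zranb2 and 0.58 to 0.64 for Coa3 leaving out 1 mouse. Of the mitosis lists, 69 of 97 genes had a positive estimate (49.0% of all genes), with a median of 0.06. An unadjusted p under 0.05 was found for 34 (15.5% of all genes), and none passed. The 4 genes of G are all among the 69, and 2 of them among the 34. Without female RD replicate 2, 53 of 97 were positive with a median of 0.02, and without female RD replicate 1, 74 with a median of 0.12. Knstrn (0.53, SE 0.09, edgeR adjusted p = 0.083) and Bub1b (0.51, SE 0.09, adjusted p = 0.0781), both in the spindle checkpoint list, came closest among those named. A test over all 12 mice set the male diet effect against the female one, and none of 12848 genes passed (0%, with 1102 at an unadjusted p under 0.05 and 29 called by DESeq2). The median over the mitosis lists of this difference, males minus females, was 0.18, and 0.05 when the cells were chosen after thinning. The male estimates were not shown to differ from the female ones.

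Whether the diet acts on G2 and mitotic keratinocytes differently from S phase keratinocytes was tested with both sums of each mouse and the mouse as a block. In males none of 11975 genes passed (0%, with 944 at an unadjusted p under 0.05 and 11 called by DESeq2, and 54 without male HFD replicate 2 and 1 without male RD replicate 1). In females 9 of 13247 genes passed (0.0679%), none of them a mitotic gene. Krt16, a stress keratin of the suprabasal layers, was lower than in S phase keratinocytes by -0.20, -0.27 and -0.19 on the log2 scale in RD mice and by -0.99, -0.81 and -0.74 in HFD mice, a difference of -0.66 (SE 0.07, edgeR adjusted p = 0.00077). Its level did not separate the diets in either class. In G2 and mitotic keratinocytes it was 142, 217 and 226 CPM in RD and 201, 131 and 261 CPM in HFD mice. In S phase keratinocytes it was 163, 261 and 258 CPM in RD and 400, 231 and 438 CPM in HFD mice. Serpinb12, a serpin of differentiating epidermis, was above its S phase level by 0.78, 1.11 and 1.06 in RD mice and near it in HFD mice (-0.16, 0.24 and -0.05), a difference of -1.19 (SE 0.14, adjusted p = 0.00224). The balance of layers is given beside these genes. Between suprabasal and basal G2 and mitotic keratinocytes, Serpinb12 had a median log2 ratio of 3.95 and was higher in 12 of 12 mice. Krt16 had 0.55 (range over mice -0.40 to 1.35) and was higher in 8 of 12. In female RD mice 21.5%, 27.8% and 23.1% of G2 and mitotic and 16.2%, 19.6% and 15.4% of S phase keratinocytes were suprabasal, and in female HFD mice 21.2%, 13.4% and 22.7% and 17.8%, 14.4% and 19.9%, so that the gap between the classes was larger in every RD than in every HFD mouse. After thinning to 5000 UMIs the gaps overlapped, since female RD replicate 1, with 19.8% and 18.3%, had a smaller one than female HFD replicate 1, with 18.2% and 14.8%, and replicate 3, with 18.7% and 15.1%. Of the 13 suprabasal genes 1 had a difference above 0 (49.1% of all genes), with a median of -0.34. Among the 13, 7 had an unadjusted p under 0.05 (8.64% of all genes), but none passed. Krt1 and Krt10, which the rule used, are among the 13. The part of the layers in the result was not tested.

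Ccnd1, which drives G1, lay at 283, 315 and 275 CPM in female RD and 192, 158 and 233 CPM in female HFD G2 and mitotic keratinocytes. In the test by diet in these cells no gene of the G1 cyclins and cell cycle inhibitors passed (lowest edgeR adjusted p = 0.115). Relative to S phase keratinocytes Ccnd1 was at 0.11, -0.05 and -0.05 in RD and -0.35, -0.36 and -0.25 in HFD mice (difference -0.34, SE 0.06, edgeR adjusted p = 0.0478). Id1, an inhibitor of differentiation factors, had a difference of -0.35, Rbp7 -0.54 and the nuclear RNA Malat1 0.19. The number of such genes ranged from 1 (without female RD replicate 2) over 3 (without female HFD replicate 1), 4 (without female RD replicate 3 or female HFD replicate 3) and 32 (without female HFD replicate 2) to 107 (without female RD replicate 1).

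The male and female libraries differed in most genes. Of 12616 genes, 4409 were higher (34.9%) and 4705 lower (37.3%) in male than in female G2 and mitotic keratinocytes, with diet in the model, in a comparison that by its design cannot tell sex from software. Against this background the mitosis lists were divided, with 25 higher and 32 lower of 97 and a median of -0.05, which was 0.09 when the cells were chosen after thinning. Cdk1 (-0.72, SE 0.10, edgeR adjusted p = 6.92e-06) and Cks2 (-0.57) were lower in males. Of the genes that chose the cells, and so given with no test, Cenpf had an estimate of 0.52 and Ube2c of -0.16, and these counts include Cenpf as 1 of the higher and Ube2c as 1 of the lower genes. Of 13 suprabasal genes 11 were higher and 0 lower in males (median 1.31), with 0.75 for Krtdap and 1.07 for Lgals3, where the suprabasal share of the class was 21.8% to 29.3% in males and 13.4% to 27.8% in females. The count includes Krt10 and Krt1, which with Krt14 and Krt5 admitted the cells and are given with no test, at estimates of 1.60, 1.21, 0.90 and 0.95. Of the 10 basal genes 6 were higher in males, Krt14 and Krt5 among them, and 3 lower. Krt15 had an estimate of 0.75, and the lowest estimate of the list was -0.72. Of 11 immediate early and heat shock genes 9 were higher and 2 lower, with 1.32 for Fos and 1.76 for Atf3, genes known to respond to the dissociation of tissue as well. The 10 largest differences between groups that did not overlap held Xist, Ddx3y and the Y-linked Eif2s3y and 7 other genes at or near 0 in 1 sex, with Saa1, an acute phase protein, at 3.14 to 7.30 CPM in males and 0 in females, the pigment gene a at 6.56 to 8.72 CPM in females and 0 in males, 1600010M07Rik at 48.8 to 72.9 CPM in females and at most 0.334 CPM in males, and 4 predicted genes (Gm14164, Gm42031, Gm11290 and Gm17106).

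Genes listed as markers of other cell types had low summed levels in the G2 and mitotic keratinocytes. The summed level of 7 T cell markers was 9.88 to 24.4 CPM over the mice and that of 6 Langerhans cell markers 14.0 to 26.8 CPM, led by Thy1 (13.6 CPM) and Mfge8 (16.6 CPM), with Cd3e and Cd74 at 0 by the rule. Without the condition on Cd74 and Cd3e, 366 more cells, or 4.67% of those that met the rest, would have been included. Melanocyte markers summed to 1.74 to 14.3 CPM, Merkel cell markers to 4.57 to 12.7 CPM, endothelial markers to 0.086 to 8.63 CPM with Cdh5 and Kdr at 0, and sweat gland markers to 8.90 to 34.9 CPM. Fibroblast markers summed to 59.3 to 141 CPM, of which Dcn gave a mean of 96.7 CPM, while Col1a1, Col1a2 and Col3a1 were at means of at most 0.532 CPM. Thy1 (median log2 ratio 1.59), Mfge8 (0.86) and Dcn (1.22) were higher than in resting keratinocytes in all 12 mice, as were 48.0% of all genes. Thy1 (-1.625) and Dcn (-2.326) were lower in suprabasal than in basal cells in all 12 mice, as were 16.1% of all genes. The authors used Dcn as a marker of migratory keratinocytes. By these values the sums are not a measure of other cells alone. Between diets, 2 of these sums did not overlap, each in 1 sex. With 3 mice against 3 an exact permutation p cannot go below 0.1 even at full separation, and several sums were compared in each sex. No diet effect is read from these gaps. The T cell sum in females was 9.88 to 11.3 CPM in RD and 14.0 to 14.8 CPM in HFD mice, and the Langerhans cell sum in males was 25.4 to 26.8 CPM in RD and 19.7 to 23.5 CPM in HFD mice. The other sums overlapped between the diets in both sexes. Between the sexes, the T cell sum was at least 16.1 CPM in males and at most 14.8 CPM in females, and the endothelial sum at most 0.955 CPM in males and at least 4.08 CPM in females. The part of these transcripts in the comparisons by diet and sex was not tested.

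The rule leaves out other cells with UMIs of its genes. A further 6008 keratinocytes had a G of at least 5 but less than 2 times their S, with a median G of 11 and S of 19, and held 161 CPM of Cenpa and 495 CPM of Top2a, against 410 and 372 CPM in the summed UMIs of the G2 and mitotic keratinocytes. Within the class, 1291 cells (17.3%) had an S of 0, a median G of 16 and 477 CPM of Cenpa. Another 488 barcodes met every condition but had over 6000 genes, with a median of 51116 UMIs and 188 CPM of Cenpa, and were left out. Of 7460 different barcodes in the class, 6 were found in more than 1 mouse.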

How the data were processed

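The authors made the deposited count matrices with Cell Ranger on the mouse genome mm10 (GRCm38) from Chromium 3′ libraries, 1 filtered matrix of UMI counts per mouse, with no further normalization. Per the labels the version was 7.2.0 and Seurat 5.0.0 followed, while the file headers give 6.1.0 for males and 7.2.0 for females. Whether introns were counted is not given in the sources used here.

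Cells were chosen on the counts as described at the start of the results. The members and gene lists were chosen with earlier results of these data known. No doublet caller was run, and the limit of 6000 genes was the only guard. UMIs were summed per mouse and class and tested with edgeR 4.0.16 (TMM, filterByExpr, quasi-likelihood test, Benjamini-Hochberg, threshold 0.05) in R 4.3.3 with limma 3.58.1, within each sex for diet, over all 12 mice for sex and its interaction with diet, and with the mouse as a block between classes. The script was tested on simulated data. Ratios between classes used CPM plus 1 per mouse, and list counts used genes at 5 CPM or more as the average of the means of both classes. Shares were compared over mice with two-sided exact permutation tests in Python 3.11.15 with scipy 1.17.1. The labels give separate mice per library, and binomial intervals (Clopper-Pearson, 95%) cover counting error only.

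Named genes were those of the rule and the given markers, the 4 best expressed of each list and any list gene past the threshold by diet, the 20 with the largest ratio to resting and the 10 with the largest and lowest to S phase keratinocytes at 50 CPM, the 10 largest called differences by diet and sex without overlap, and Xist and Ddx3y. Others are said to have been named after their values were seen. Alternatives were DESeq2 1.42.0, RLE size factors, no filter on low counts, other limits on G, genes and mitochondrial share, thinning, a replicate block, and leaving out each mouse. Choosing the cells after thinning for the expression tests was added after seeing the data. Promoter windows (250 bases before to 50 after the start) came from RefSeq, GRCm38.p6.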

Additional observations from a re-analysis of the deposited data

Results flagged for a closer look

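In females, the HFD effect on 9 genes differed between G2 and mitotic and S phase keratinocytes by the interaction term of edgeR's quasi-likelihood test (Benjamini-Hochberg adjusted p, 3 mice per diet). The differences of the log2 fold changes, G2 and mitotic minus S phase, were -0.66 for Krt16 (adjusted p = 0.00077), -1.19 for Serpinb12 (adjusted p = 0.00224) and 0.19 for Malat1 (adjusted p = 0.0345). Those of Id1 (-0.35), Rbp7 (-0.54), Hist1h2ap (0.53), Il1f6 (-3.77), Wfdc21 (-1.76) and Ccnd1 (-0.34) each had an edgeR adjusted p of 0.0478. Without female RD replicate 2 the difference was -2.15 for Il1f6 (edgeR adjusted p = 0.338) and -1.10 for Wfdc21 (adjusted p = 0.0964), and in that mouse the log2 ratios to S phase keratinocytes, 2.54 and 2.20, were the highest of the 6 females. DESeq2 returned no adjusted p for Serpinb12, Il1f6, Rbp7 and Wfdc21. Krt16 passed in all 11 alternatives with an adjusted p and Serpinb12 in 9 of 10, while the other 7 genes each missed the threshold in 4 or 5 of their 10 or 11. Il1f6 was scarce, with 1.19 to 6.61 CPM in the S phase keratinocytes of females. Hist1h2ap in S phase keratinocytes ranged from 89.2 to 613 CPM over the 6 female mice.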

How the results depend on the processing

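Genes called by diet in G2 and mitotic keratinocytes moved with the tool and the filter. In males (0 called) DESeq2 called 21 and no filter on low counts 101. In females (3 called) DESeq2 called 186, no filter 303, a G of at least 10 gave 8, at most 5000 genes per cell 10, cells chosen after thinning 76 (an alternative chosen after seeing the data), all 12 mice in 1 fit 32, and leaving out 1 mouse 0 to 71. For the difference of diet effects between the sexes (0 called) the counts were 29 with DESeq2, 95 with no filter, 5 after thinning and 0 to 4 leaving out 1 mouse. For diet by class, males (0 called) had 11 with DESeq2, 26 with RLE size factors, 250 with no filter, 1 at 5000 genes and 0 to 54 leaving out 1 mouse, and females (9 called) had 26 with DESeq2, 248 with no filter, 36 at a G of 10, 55 at 5000 genes and 1 to 107 leaving out 1 mouse. The cause was not tested. The count by sex stayed within 1.5 times of 9114 in all 18 alternatives.

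The difference in share by diet in females (0.24 points) was -0.19 at a G of 10 and ran from -0.28 to 0.85 leaving out 1 mouse. That by sex was -0.90 at a G of 3 and ran from -1.62 to -1.01. The female effect on cells per S phase cell ran from -0.56 to 0.0769, the last without female HFD replicate 3. The other share results kept their direction in every alternative run, though at a G of 10 the male diet difference was -0.57 and that between the diet effects -0.38. For the comparisons of 3 against 3 mice the threshold could not be reached, so staying above it says nothing. The suprabasal share against S phase and resting keratinocytes stayed past it in all 17 alternatives.

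The replicate numbers did not pair the mice: correlations of same-numbered RD and HFD deviations were -0.18, -0.31 and 0.02 in females and -0.09, 0.06 and 0.03 in males. With a replicate block 0 genes were called by diet in females and 0 in males, and the share differences stayed at -0.93 (exact permutation p = 0.5) and 0.24 points (p = 1.0). With 3 mice a group, depth of 5980765 to 14027978 UMIs per sum may limit what can be called for scarce genes, which was not tested.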

Other observations

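Of 11 immediate early and heat shock genes, 0 were higher and 5 lower than in S phase keratinocytes in all 12 mice, where 17.0% of all genes were higher and 12.3% lower. Jun lay at 1720 CPM (median log2 ratio -0.04), Fos at 1127 (-0.18), Junb at 1117 (-0.10) and Atf3 at 981 CPM (-0.15). The heat shock genes Hspa1a (-0.62) and Hspa1b (-0.87), chosen after their values were seen, were lower than in resting keratinocytes in all 12 mice. Among keratins of volar skin and stress, Krt16 was below its S phase (-0.46) and resting (-0.98) level in all 12 mice, while Krt17 (279 CPM, -0.09) and Krt6a (226 CPM, 0.05) lay near their S phase level.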
